A study of Mus musculus with 48 samples.

Results

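The genes described here come from a list meant for genes that make the mucus of the intestinal goblet cell or control its making. They were chosen by name from the 3 intestinal tables, as every row whose symbol was Muc2, Tff3, Fcgbp, Clca1, Agr2, Spink4, Zg16, Spdef, Retnlb or Muc13, with 1 row for each Ensembl identifier. The rule gave 11 rows for 9 symbols, of 10907 genes in the duodenum table, 11021 in the jejunum table and 10777 in the ileum table. Retnlb, which encodes a secreted resistin-like peptide of goblet cells, was listed in none of these tables and has no value here.

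The study compared Roux-en-Y gastric bypass (RYGB) with sham surgery in male C57Bl6 mice with diet-induced obesity. The bypass joins the jejunum to a pouch cut from the stomach, and food then skips the duodenum. Every mouse had been on a high fat diet before surgery, received a liquid elemental diet after it, and was killed on day 9 in the morning after an overnight fast. There were 24 libraries, with 3 after RYGB and 4 after sham surgery in each of duodenum and jejunum, and 5 of either kind in the ileum, and each was a sequenced mRNA sample of villi that were scraped off after a short time in cold EDTA. All groups thus shared the strain, sex, obesity, diet and fast, and no group carried a transgene or a drug. The labels give neither the age of the mice nor the limb of the bypass from which the jejunum was taken, and they do not say that each library came from its own mouse, so that the p-values measure the spread between these libraries.

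Goblet cells are secretory cells that lie singly between the absorptive enterocytes and release mucus onto the villus surface. Muc2 is the large gel-forming mucin, and Fcgbp, Clca1, Zg16 and Tff3 are secreted with it and become parts of the gel. Agr2 is a disulfide isomerase of the endoplasmic reticulum that mucin assembly needs, Spdef is a transcription factor of goblet cell maturation, and Spink4 is a small secreted peptide of goblet cells with a Kazal-type inhibitor domain. Muc13 is a mucin anchored in the cell membrane that enterocytes make as well. The small intestine has fewer goblet cells near the stomach and more toward the colon, and interleukins 4 and 13 and the loss of Notch signals are known to increase them.

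The symbols in the tables are older than those in use, and this decided which gene was read. The row named Clca1 carries the identifier ENSMUSG00000056025, which the GENCODE M21 annotation calls Clca3a1, a relative of Clca1. It lies on chromosome 3 of GRCm38 from 144729677 to 144760977 on the minus strand. The goblet gene Clca1, also known as Gob-5, is ENSMUSG00000028255 on the same strand from 145003817 to 145032776, and the tables list it under the symbol Clca3. It was added to the rows of the rule, and both genes are named here by their M21 symbols. Clca3a1 entered through its older symbol alone and was not meant as a mucus gene, but it stays in the counts of rows and genes below. Over 2637 aligned coding positions they shared 62.8% of the bases, and the longest run present in both coding sequences had 18 bases. The stretch around that run is printed to show how close the 2 genes are, with the coding bases 429 to 506 of Clca1 beside 426 to 503 of Clca3a1 and the 22 differing bases in capitals.
Clca1: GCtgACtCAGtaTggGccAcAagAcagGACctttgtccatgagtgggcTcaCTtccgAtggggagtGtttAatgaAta
Clca3a1: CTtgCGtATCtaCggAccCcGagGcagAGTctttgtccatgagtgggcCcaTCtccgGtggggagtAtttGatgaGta

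Muc2 had 3 rows. The row used below is ENSMUSG00000025515, on chromosome 7 from 141690340 to 141754693 on the plus strand, where the annotation marks the locus as fragmented. The other 2 rows, ENSMUSG00000094393 and ENSMUSG00000095400, are identifiers that M21 no longer holds, and they stood between 1.2 and 35.1 CPM, at most 0.0331 times the Muc2 row of the same library. They are kept as rows in the counts below, so that Muc2 enters them up to 3 times, and the number of genes is given beside the rows where it differs. With Clca1 added there were 12 rows for 10 genes, and all 12 passed the filter of a mean of at least 1 CPM (counts of a gene scaled by the total of its library) in each segment.

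Spink4 and Tff3 are printed because Spink4 had the largest called change after RYGB, and Tff3 was the member whose level went most closely with it across libraries. Both encode short secreted peptides held together by disulfide bonds. The coding sequences were read from the M21 transcripts without the stop codon, with the cysteine codons in capitals, 7 of 81 codons in Tff3 and 6 of 86 in Spink4. Spink4 lies on chromosome 4 from 40920052 to 40931395 on the plus strand in 4 exons, and Tff3 on chromosome 17 from 31125306 to 31129646 on the minus strand in 3 exons.
Tff3: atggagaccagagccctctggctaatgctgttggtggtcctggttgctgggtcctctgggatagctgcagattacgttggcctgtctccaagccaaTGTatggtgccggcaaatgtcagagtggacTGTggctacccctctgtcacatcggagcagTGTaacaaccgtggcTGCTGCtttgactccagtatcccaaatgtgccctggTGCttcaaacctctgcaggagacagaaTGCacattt
Spink4: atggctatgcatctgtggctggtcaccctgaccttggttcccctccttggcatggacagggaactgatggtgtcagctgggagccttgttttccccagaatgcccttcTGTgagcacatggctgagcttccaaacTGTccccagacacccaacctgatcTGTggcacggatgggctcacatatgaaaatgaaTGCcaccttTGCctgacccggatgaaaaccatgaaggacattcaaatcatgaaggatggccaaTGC

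The libraries were looked at before the genes. In the duodenum 3 libraries had less of their CPM in the listed genes than the others, sham replicate 2 with 925122, sham replicate 1 with 970679 and RYGB replicate 3 with 973816, against at least 996265 elsewhere. The same 3 had 4817.2, 1978.8 and 517.5 CPM of Cela1, an elastase of pancreatic acinar cells, against at most 11.7 CPM in the other duodenal libraries, and it was the only 1 of the 8 acinar markers listed. The villus marker Vil1 lay between 2011.1 and 5269.9 CPM in all 24 libraries. Fabp6, the ileal bile acid binding protein and a defining ileal marker, lay between 0.1 and 50.5 CPM after RYGB and from 0 to 22.9 CPM after sham surgery, and it was at 0 in sham replicates 1 and 5. This marker was thus absent or nearly so in 3 ileal libraries (0.1 CPM in RYGB replicate 4), and it was not listed for the other segments. The proximal marker Gata4 did not set the ileal libraries apart. It lay between 105 and 183.2 CPM in the ileum, 122 and 239.1 CPM in the jejunum, and 136 and 246.8 CPM in the duodenum. The segments are therefore named here by their labels. Of 12 leukocyte markers 9 were listed in each segment, and their summed level ran from 59.4 to 848.3 CPM in the sham duodenum and from 130.3 to 332.6 CPM after RYGB, from 110.4 to 2042.4 and from 39.7 to 95.4 CPM in the jejunum, and from 99.1 to 2371.8 and from 23.9 to 1455.9 CPM in the ileum. Cd74, which epithelial cells can express as well, made up most of the sums above 800 CPM. In this bulk material, fewer goblet cells and less mucus RNA in each goblet cell cannot be told apart.

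Levels can be compared between genes only per kilobase of exon. In the sham ileum, mean levels per kilobase were 2414 CPM for Muc13, 1631 for Zg16, 989 for Tff3, 339 for Fcgbp, 242 for Clca1, 164 for Muc2, 72.5 for Spink4, 66.0 for Agr2, 12.2 for Clca3a1 and 3.05 for Spdef. The exons of Muc2 add up to only 7127 bases in the annotation, so that its level per kilobase refers to this incomplete model. Spdef was the rarest of them in this group, whereas Clca3a1 was rarer than Spdef in the duodenum and the jejunum.

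In the jejunum RYGB raised 2 of the 12 rows, Spink4 and Clca1, while the gel components Muc2, Fcgbp, Zg16 and Tff3 did not pass the test (limma on log2(CPM + 1), Benjamini-Hochberg adjusted p under 0.05 and at least 1.5-fold). Over all 10854 genes tested, 9.75% were called, 4.62% as higher after RYGB. The median log2 fold change was 0.52 over the 12 rows, 0.63 over the 10 genes and -0.04 over all genes, with 11 of 12 rows, 9 of 10 genes and 45.5% of all genes above 0. At an unadjusted p under 0.05, 5 of the 12 rows and 24.6% of all genes passed.

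Spink4 stood at 94.8, 96.1 and 68.3 CPM in the 3 RYGB libraries of the jejunum and at 17.8, 32.3, 31.9 and 51.5 CPM in the 4 sham libraries. The lowest RYGB library lay above the highest sham library, and sham replicate 1 was the lowest of all. The mean was 86.4 ± 15.7 CPM (SD, n = 3) against 33.4 ± 13.8 CPM (SD, n = 4), a log2 fold change of 1.42 with a standard error of 0.31 (limma, adjusted p = 0.0193). The call was lost without RYGB replicate 1 (adjusted p = 0.0514) and without RYGB replicate 2 (adjusted p = 0.0757), with log2 fold changes of 1.35 and 1.34. RYGB replicate 2 was the only jejunal library from the second sequencing lane, so that lane as a covariate gave the same change as leaving it out (1.34, adjusted p = 0.0756).

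Clca1, a metalloprotease that acts on the Muc2 network, stood at 971.2, 1290.5 and 1177.0 CPM in the jejunal RYGB libraries. The 4 sham libraries held 731.4, 545.5, 834.2 and 587.2 CPM. The groups did not overlap, and the log2 fold change was 0.77 with a standard error of 0.20 (limma, adjusted p = 0.0410). Spink4 and Clca1 were the only 2 of the 12 rows with no RYGB library as low as any sham library, and 9.75% of all jejunal genes were of this kind. The Clca1 call stood close to the threshold and was lost in 5 of 7 fits that left out 1 library, namely RYGB replicate 2 or 3 or sham replicate 1, 2 or 4 (adjusted p from 0.0718 to 0.162) and with the lane covariate (0.68, adjusted p = 0.164).

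The genes for the making of mucus did not pass. Agr2 stood at 86.6, 112.8 and 140.6 CPM after RYGB and at 50.1, 76.2, 92.8 and 60.4 CPM after sham surgery, so that the ranges overlapped in a single pair of libraries. Its log2 fold change of 0.70 with a standard error of 0.24 did not pass (limma, adjusted p = 0.104). Spdef stood at 5.6, 11.8 and 8.6 CPM against 4.7, 4.3, 6.0 and 4.3 CPM, with a log2 fold change of 0.69 (limma, adjusted p = 0.124). Without RYGB replicate 1, the lowest of the RYGB libraries, Spdef passed with 0.94 (adjusted p = 0.0477).

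Muc2 itself stood at 672.2, 799.8 and 956.6 CPM after RYGB and at 581.4, 509.2, 868.2 and 585.6 CPM after sham surgery in the jejunum. Sham replicate 3 lay inside the RYGB range, and the log2 fold change was 0.36 with a 95% interval from -0.13 to 0.85. Fcgbp, a large protein of the mucus gel, had 0.21 (interval -0.48 to 0.89). The lectin-like Zg16 had -0.01 (interval -0.50 to 0.48), and the trefoil peptide Tff3 had 0.16 (interval -0.35 to 0.67). These intervals leave room for changes of about the size seen in Clca1 for Muc2 and Fcgbp. Muc13 had 9190 ± 1462 CPM (SD, n = 3) against 6240 ± 1355 CPM (SD, n = 4), a log2 fold change of 0.57 that was not called (limma, adjusted p = 0.194).

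**Figure D1:**
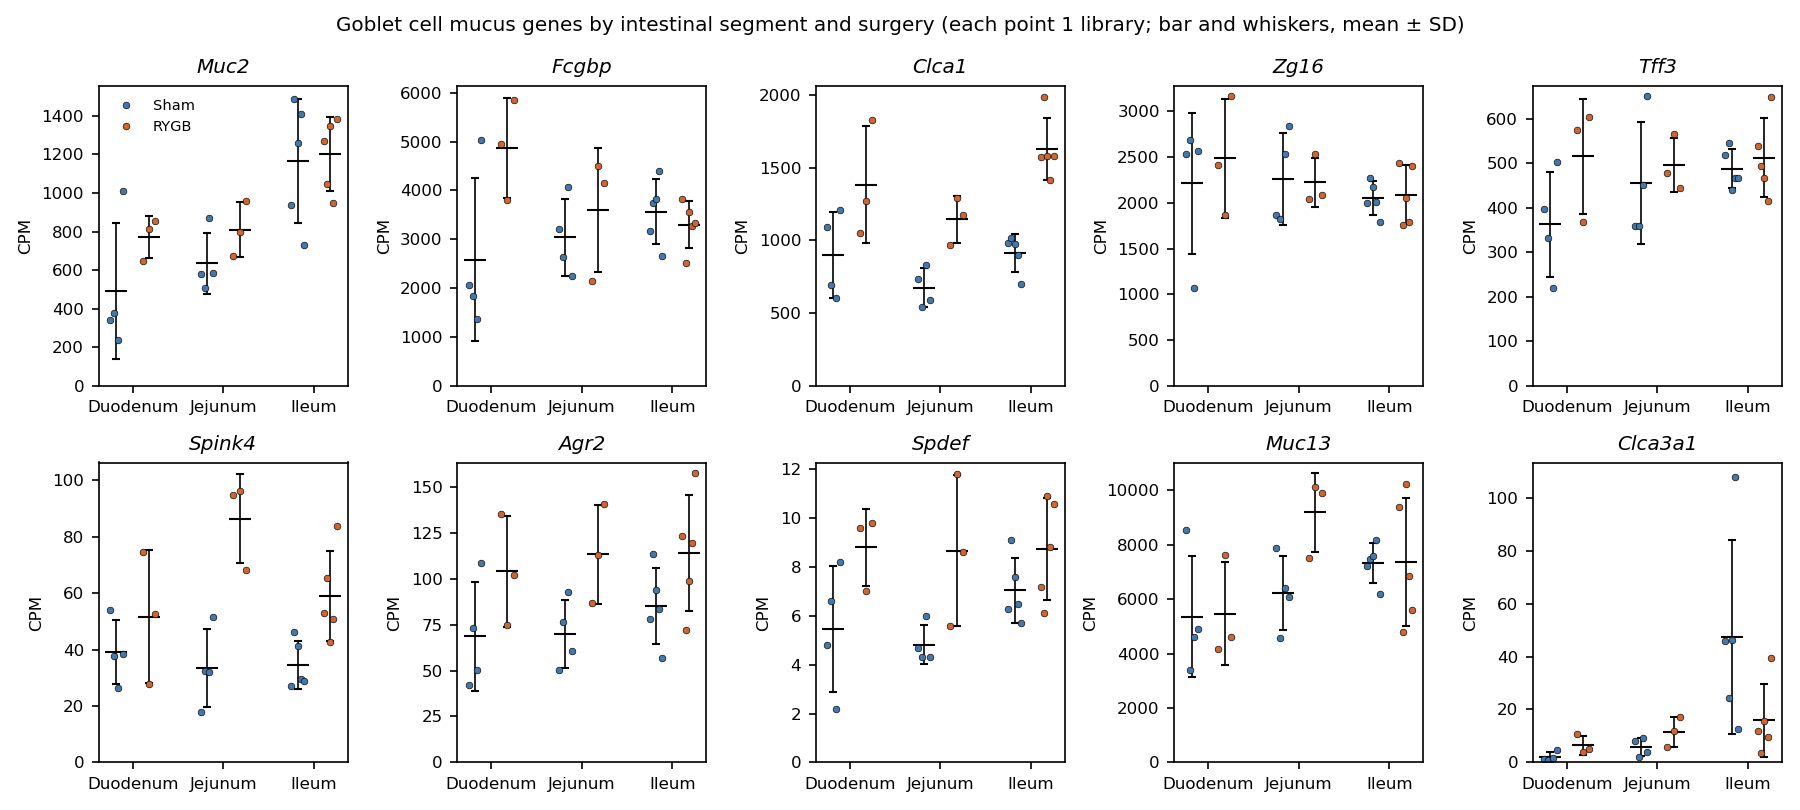
CPM of 10 genes (1 panel each, linear axes from 0) by intestinal segment, with sham libraries in blue and RYGB libraries in orange, 1 point for each library, and black bars and whiskers for the mean ± SD. In the jejunum the 3 RYGB points of Spink4 (68.3 to 96.1 CPM) lie above the 4 sham points (17.8 to 51.5 CPM), and in the ileum the RYGB points of Clca1 lie apart from the sham points.

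In the ileum the same 2 genes rose, Clca1 and Spink4, and the other rows did not pass. Over the 10735 genes tested, 6.05% were called and 1.64% were called as higher after RYGB. The median log2 fold change was 0.04 over the 12 rows, 0.07 over the 10 genes and -0.09 over all genes, and 7 of 12 rows, 7 of 10 genes and 38.4% of all genes were above 0. At an unadjusted p under 0.05, 3 of the 12 rows and 26.5% of all genes passed. All ileal RYGB libraries were sequenced in lane 1 and the sham libraries in lanes 2 and 3, and the effect of lane and that of surgery cannot be told apart here.

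Clca1 stood at 1570.1, 1988.9, 1581.3, 1412.6 and 1583.3 CPM in the 5 RYGB libraries of the ileum. The 5 sham libraries held 983.2, 1019.4, 978.3, 896.7 and 697.2 CPM. The groups did not overlap, which held for Clca1 alone among the 12 rows and for 2.42% of all ileal genes in this direction. The mean was 1627 ± 215 CPM (SD, n = 5) against 915 ± 130 CPM (SD, n = 5), a 1.78-fold level with a log2 fold change of 0.83 and a standard error of 0.14 (limma, adjusted p = 0.00878). The call held in all 10 fits that left out 1 library, with adjusted p from 0.0133 to 0.0277.

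Spink4 stood at 52.9, 65.3, 42.6, 50.8 and 83.8 CPM after RYGB and at 27.2, 46.2, 41.4, 29.5 and 28.7 CPM after sham surgery in the ileum. RYGB replicate 3 lay below sham replicate 2, and the other RYGB libraries lay above all sham libraries. The log2 fold change was 0.75 with a standard error of 0.20 (limma, adjusted p = 0.0421). It was lost in 7 of 10 fits that left out 1 library (RYGB replicate 1, 2 or 5 or sham replicate 1, 3, 4 or 5, adjusted p from 0.0599 to 0.0988).

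RYGB replicate 3 and sham replicates 3 and 4 had the highest leukocyte sums of the ileum, and Spink4 was lowest of the RYGB libraries in the first of them. Without these 3 the log2 fold changes were 0.87 for Clca1 and 0.89 for Spink4, with adjusted p of 0.0660 and 0.0973 (limma). The T lymphocyte markers Cd3e, Cd8a and Gzma and the pan-leukocyte marker Ptprc were lower after RYGB in both the jejunum and the ileum, 4 of 9 listed leukocyte markers in each. Over all genes, 9.75% were called in the jejunum and 6.05% in the ileum. Cd3e fell by 1.58 on the log2 scale in the jejunum (limma, adjusted p = 0.0037) and by 1.61 in the ileum (adjusted p = 0.00878). The part of lymphocytes in the levels of the goblet genes was not tested.

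Some markers of the position along the intestine also differed with surgery, where 6.05% of all genes were called in the ileum and 9.75% in the jejunum. In the ileum 2 of 3 proximal markers were called as lower after RYGB, Lct (-0.68, limma, adjusted p = 0.0261) and Onecut2 (-1.91, adjusted p = 0.0235), and their summed level ran from 3162 to 3596.4 CPM after RYGB and from 4496.2 to 6885 CPM after sham surgery. Of 5 distal markers 2 were called as higher, the bile acid transporters Slc10a2 (2.30, adjusted p = 0.0474) and Slc51b (0.74, adjusted p = 0.0457), and the median of the list was 1.45. In the jejunum 1 of 4 proximal markers was lower, Lct, with sums from 1681 to 1991.1 CPM against 3581.3 to 5607.6 CPM, and 1 of 3 distal markers was higher, Slc51b (0.90, adjusted p = 0.0266; limma). Lct, the lactase of the villus, made up most of each proximal sum in these 2 segments. In the duodenum 0 of 4 proximal and 0 of 2 distal markers were called (limma, 0 and 0 at an unadjusted p under 0.05). The part of the sampled position in the changes of Clca1 and Spink4 was not tested.

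The main gel proteins did not pass in the ileum. Muc2 ran from 948.5 through a median of 1268.5 to 1383.8 CPM after RYGB and from 729.8 through 1261.5 to 1486.7 CPM after sham surgery, with the sham range holding the whole RYGB range. The log2 fold change was 0.08 with a 95% interval from -0.36 to 0.52. The intervals were -0.48 to 0.28 for Fcgbp, -0.29 to 0.32 for Zg16 and -0.22 to 0.34 for Tff3, so that rises as large as that of Clca1 lay outside them. Agr2 (0.41, adjusted p = 0.251) and Spdef (0.26, adjusted p = 0.386) did not pass, and Muc13 had -0.05 (limma, adjusted p = 0.918). After median-ratio scaling of the libraries, Fcgbp had 0.01 and Muc13 0.06, so that the sign of these small values depended on the scaling.

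Clca3a1 was lower on average after RYGB in the ileum, without passing. The 5 RYGB libraries held 11.7, 3.6, 15.6, 9.5 and 39.4 CPM and the 5 sham libraries 46.0, 24.4, 46.3, 107.9 and 12.6 CPM. Values varied widely within each group, and the ranges overlapped. The log2 fold change was -1.53 with a standard error of 0.59 (limma, adjusted p = 0.120). It passed without RYGB replicate 5, the highest RYGB library, at -1.94 (adjusted p = 0.0455).

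**Figure D2:**
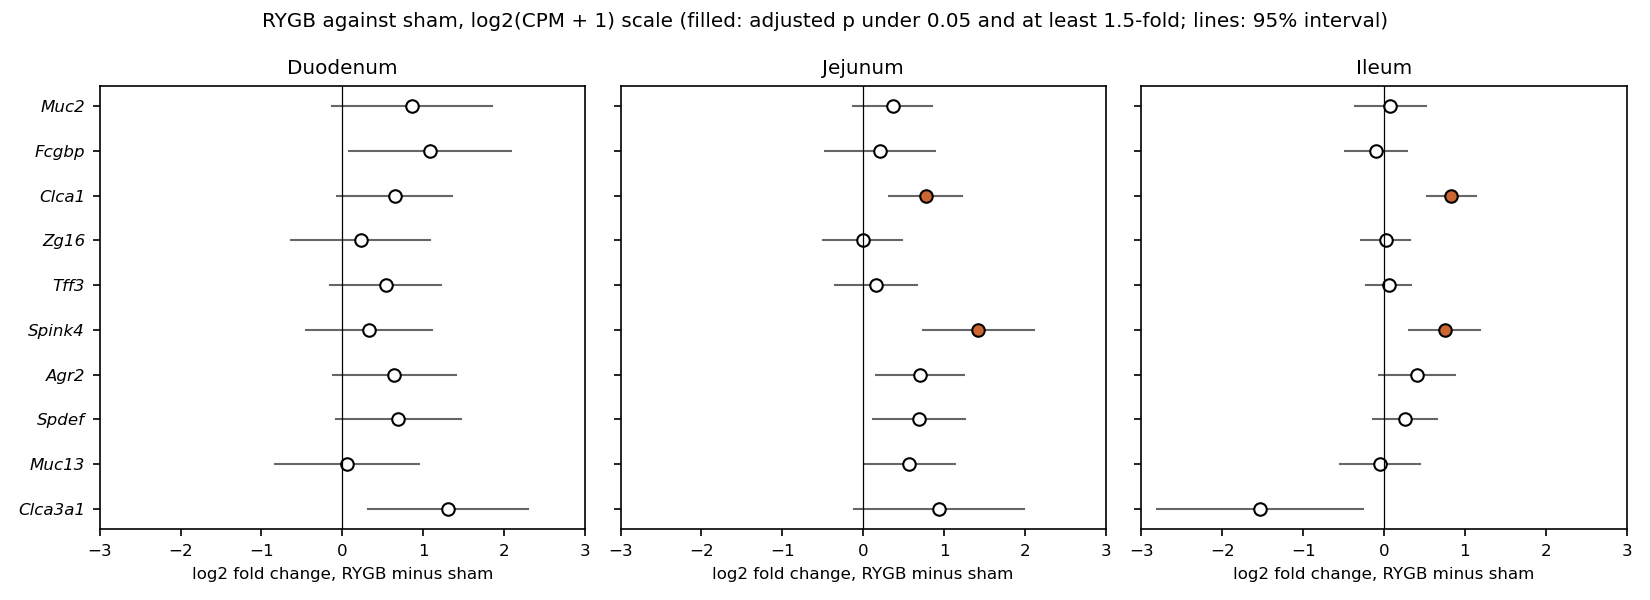
Log2 fold change of RYGB against sham on the log2(CPM + 1) scale for 10 genes in each segment, with points for the estimates, lines for the 95% intervals and filled points for calls (adjusted p under 0.05 and at least 1.5-fold). Clca1 and Spink4 are filled in the jejunum and the ileum, no gene is filled in the duodenum, and Clca3a1 lies above 0 in the duodenum (1.30) and below 0 in the ileum (-1.53).

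In the duodenum, which food bypasses after RYGB, no row was called, and 1 gene of the 10850 tested was called at all (0.00922%). At an unadjusted p under 0.05, 3 of the 12 rows, 2 of the 10 genes and 18.8% of all genes passed. In 12.7% of all genes, and in 0 of the 12 rows, all RYGB libraries were above all sham libraries. Every one of the 12 rows had a log2 fold change above 0, with a median of 0.67 (0.64 over the 10 genes), where 66.6% of all genes were above 0 and their median was 0.12. After median-ratio scaling, which brought the median of all genes to 0.00, 11 of 12 rows were above 0 with a median of 0.55, and Muc13 turned to -0.07. Relative to Muc2 of the same library, 4 of the other 11 rows were above 0, with a median of -0.22. These were Fcgbp, Clca3a1 and both smaller rows of Muc2 itself. The share of all genes above 0 was not computed on this scale.

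Muc2 stood at 646.5, 812.8 and 855.9 CPM in the duodenal RYGB libraries and at 342.7, 377.6, 240.0 and 1012.7 CPM in the sham libraries. Sham replicate 4 was above every RYGB library, and the other 3 sham libraries were below them all. The log2 fold change was 0.86 with a standard error of 0.43 (limma, adjusted p = 0.322). Fcgbp showed the same order, with 4942.1, 3807.4 and 5848.9 CPM against 2067.6, 1835.5, 1367.1 and 5040.4 CPM and a log2 fold change of 1.08 (limma, adjusted p = 0.237).

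A single library thus decided the duodenal result. Without sham replicate 4 there were 4 calls among the 12 rows, for Muc2 (1.28, adjusted p = 0.0220), its row ENSMUSG00000094393 (1.23, adjusted p = 0.0402), Fcgbp (1.47, adjusted p = 0.0285) and Clca3a1 (1.65, adjusted p = 0.0305; limma), that is 3 of the 10 genes. The same fit called 6.97% of all genes and 4.9% as higher after RYGB, against 0.00922% with that library, so that leaving it out raised calls across the table. Without the 3 libraries rich in Cela1, RYGB replicates 1 and 2 and sham replicates 3 and 4 were left, and no row was called (the share of all genes was not computed). Muc2 (0.55), Fcgbp (0.72), Clca1, Tff3, Agr2 and Clca3a1 then had smaller values than in the full fit. Those of Spink4 (0.51), Zg16 (0.36), Spdef (0.76) and Muc13 (0.25) were larger. This fit kept sham replicate 4 among few libraries, so that the loss of size in Muc2 and Fcgbp cannot be read as an effect of Cela1. All duodenal libraries came from 1 lane, and the summed leukocyte level of sham replicate 4 (261 CPM) lay within the range of the others. Its Ptprc (19.6 CPM) and Vil1 (3491.2 CPM) lay above the other sham libraries (at most 7.9 and 2571.7 CPM). Both were within the RYGB ranges (18.1 to 46.5 and 2896 to 3795.8 CPM). Its enterocyte sum (80923.2 CPM) and its level of the proximal marker Gata4 (150.1 CPM) lay within the range of the other sham libraries and outside that of RYGB. The part of these differences was not tested.

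Clca1 (0.65), Agr2 (0.64), Spdef (0.69), Tff3 (0.53), Spink4 (0.33) and Zg16 (0.23) had smaller values in the duodenum, with adjusted p between 0.297 and 0.779 (limma). Spink4 ran from 27.8 to 74.7 CPM after RYGB and from 26.2 to 54.1 CPM after sham surgery. The 2 ranges overlapped. Clca3a1 stood at 10.6, 4.0 and 4.9 CPM against 1.3, 0.8, 1.7 and 4.8 CPM, a log2 fold change of 1.30 (limma, adjusted p = 0.184).

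Marker lists of other cells varied in the duodenum, with no marker called. The summed level of 5 crypt stem and cycling markers lay between 32.2 and 134.3 CPM after RYGB and between 9.0 and 25.2 CPM after sham surgery. Their median log2 fold change was 1.64, beside 0.88 over 8 Paneth cell markers, 0.73 over 8 tuft cell markers and 1.33 over 9 leukocyte markers. Enterocyte markers (0.05 over 12) and enteroendocrine markers (0.22 over 9) lay nearer to the median of all genes, and the acinar marker Cela1 had -2.25. The part of these cells in the duodenal values of the mucus genes was not tested.

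Whether RYGB acted differently between segments was tested in 1 fit over the 24 libraries and the 10518 genes that all 3 tables list and that passed the filter. Of the 12 rows, Clca3a1 alone was called, in the comparison of ileum with duodenum, where 8.94% of all genes were called, and 0 rows were called for jejunum against duodenum (7.06%) and ileum against jejunum (0.951%). The median difference over all genes was -0.18 for jejunum against duodenum and -0.22 for ileum against duodenum, and scaling brought both within 0.02 of 0. The RYGB effect on Clca3a1 in the ileum was lower than that in the duodenum by a log2 difference of -2.84, with a standard error of 0.85 (limma, adjusted p = 0.0394). It was lost after scaling (-2.63, adjusted p = 0.0562) and in 11 of 24 fits that left out 1 library. For Spink4 the jejunal effect exceeded the duodenal one by 1.09 (adjusted p = 0.151) and the ileal effect differed from the jejunal one by -0.67 (adjusted p = 0.608). For Clca1 the 3 differences were 0.13, 0.06 and 0.19 (adjusted p from 0.708 to 0.987), so that the duodenal change was not shown to differ from those called in the other segments.

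Along the sham intestine, Muc2 increased toward the ileum. Its mean was 493.2 ± 351 CPM (SD, n = 4) in the duodenum, 636 ± 159 CPM (SD, n = 4) in the jejunum and 1166 ± 322 CPM (SD, n = 5) in the ileum. The step from duodenum to ileum was called (log2 difference 1.42, standard error 0.29, limma, adjusted p = 0.00107), while the neighbouring steps were not (0.56 with adjusted p = 0.404, and 0.85 with adjusted p = 0.0766). Both smaller Muc2 rows followed it, at 1.90 and 1.80. With Clca3a1 this made 4 calls among the 12 rows, but only 2 genes, from duodenum to ileum, where 21.2% of all genes were called, 1 from jejunum to ileum (4.76%) and 0 from duodenum to jejunum (2.3%). Segments came from separate tables, partly from different lanes, with values scaled within each library, so that segment and table cannot be told apart. The ranges of the proximal marker Gata4 also overlapped between the segments.

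Clca3a1 had the steepest slope. Its sham libraries ran from 0.8 to 4.8 CPM in the duodenum, from 1.9 to 9.4 CPM in the jejunum and from 12.6 to 107.9 CPM in the ileum, with no overlap between the ileum and the other segments. The log2 difference between ileum and duodenum was 3.76 (limma, adjusted p = 6.83e-05), and between ileum and jejunum 2.67 (adjusted p = 0.0142). Zg16 held the most even level, with 2213 ± 768, 2266 ± 502 and 2051 ± 185 CPM (SD, n = 4, 4 and 5) and differences of 0.12 or less in size. Clca1 was lowest in the sham jejunum, at 675 ± 133 CPM, and its neighbours in order, the duodenum at 898 ± 294 CPM and the ileum at 915 ± 130 CPM, did not differ from it beyond the test (limma, adjusted p = 0.441 and 0.171).

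Among the RYGB libraries none of the 12 rows was called between segments, where 18.3%, 6.3% and 16.7% of all genes were called for jejunum against duodenum, ileum against jejunum and ileum against duodenum. The median of all genes was -0.24 in both comparisons with the duodenum. Muc2 stood at 772 ± 111, 810 ± 142 and 1200 ± 192 CPM (SD, n = 3, 3 and 5), and the step from duodenum to ileum was 0.63 (limma, adjusted p = 0.153). Clca3a1, with 6.5, 11.5 and 16.0 CPM on average, had 0.92 (adjusted p = 0.284). Spink4 had its highest mean in the RYGB jejunum, 0.82 above the RYGB duodenum on the log2 scale (adjusted p = 0.0914), and passed after scaling (1.06, adjusted p = 0.0390) and without RYGB replicate 1 of the duodenum (1.14, adjusted p = 0.0464).

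The levels were also set against Muc2 of the same library. In the ileum Clca1 reached between 1.14 and 1.90 times the CPM of Muc2 after RYGB and between 0.635 and 1.05 times after sham surgery, without overlap. In the jejunum the ranges were 1.23 to 1.61 and 0.961 to 1.26, overlapping in 1 sham library. Spink4 had 0.0714 to 0.141 times the CPM of Muc2 in the RYGB jejunum and 0.0306 to 0.0879 in the sham jejunum. In a fit of all genes relative to Muc2, Spink4 passed in the jejunum (1.06, limma, adjusted p = 0.0189), while Clca1 did not pass in the jejunum (0.41, adjusted p = 0.426) or the ileum (0.76, adjusted p = 0.209) and Spink4 did not pass in the ileum (0.67, adjusted p = 0.450). Clca3a1 passed in the ileum on this scale (-1.61, standard error 0.35, limma, adjusted p = 0.000665). Without the division by Muc2 it had a like value and did not pass (-1.53, standard error 0.59, limma, adjusted p = 0.120). After the division every gene carries the variation of Muc2, and limma draws the errors of all genes toward a common value. The standard errors of the 11 rows lay between 0.299 and 0.373 in the ileum and between 0.337 and 0.399 in the jejunum. The smaller error of Clca3a1 thus need not reflect its own spread. Passing on this scale, also by Spink4, cannot be set against the undivided fit. The share of all genes called relative to Muc2 was not computed.

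**Figure D3:**
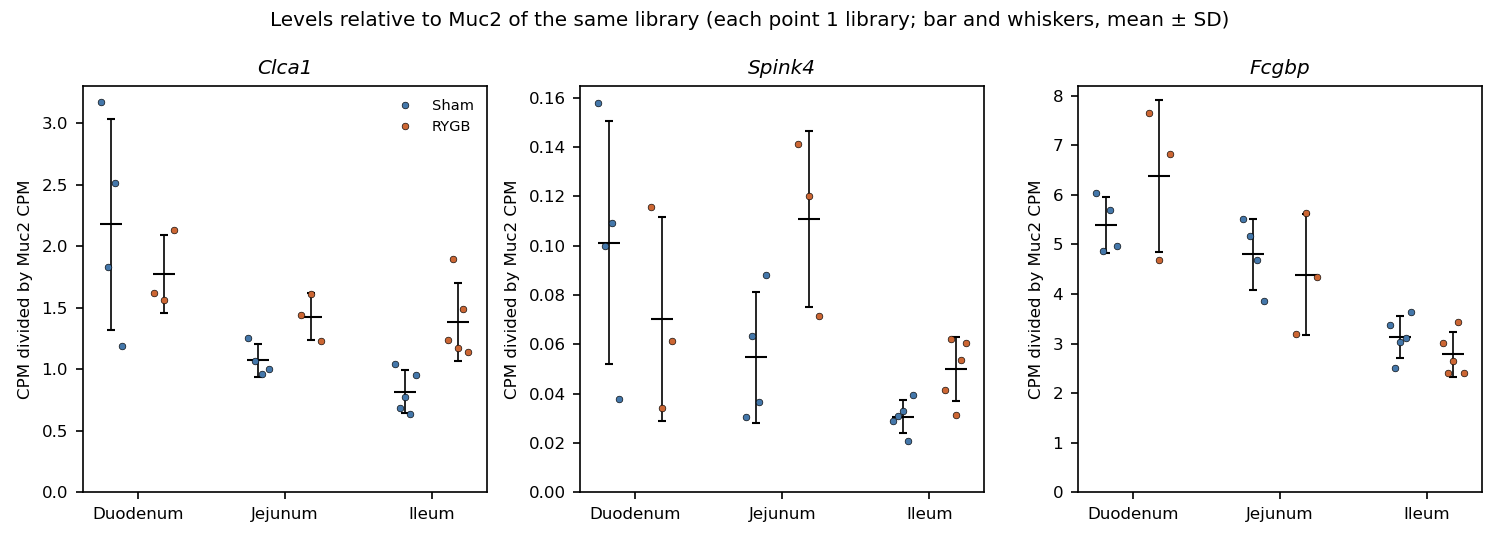
CPM of Clca1, Spink4 and Fcgbp divided by the CPM of Muc2 in the same library, by segment, with sham libraries in blue, RYGB libraries in orange and black bars and whiskers for the mean ± SD (linear axes from 0). For Clca1 in the ileum the 5 RYGB points (1.14 to 1.90) lie above the 5 sham points (0.635 to 1.05), while for Fcgbp the groups overlap in every segment.

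Within groups, some members followed Muc2 more closely than others. Pearson's r was taken over the 24 libraries on deviations from the mean of each group of segment and surgery, as a description without a test, since the libraries share tables and the scale of CPM. With Muc2 it was 0.84 for Fcgbp, 0.70 for Spdef, 0.67 for Clca1 and 0.66 for Agr2, and lower for Zg16 (0.55), Tff3 (0.50), Muc13 (0.20) and Spink4 (0.11). Fcgbp ranked first among the 8464 genes compared. The 5 genes outside the list with the highest r were Bcas1 (0.82), Tpsg1 (0.78), Capn9 (0.78), Mcf2l (0.77) and Muc3a (0.76), the last a membrane mucin. Spink4 went with Tff3 (0.72) and Zg16 (0.59), and Tff3 with Zg16 (0.84).

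**Figure D4:**
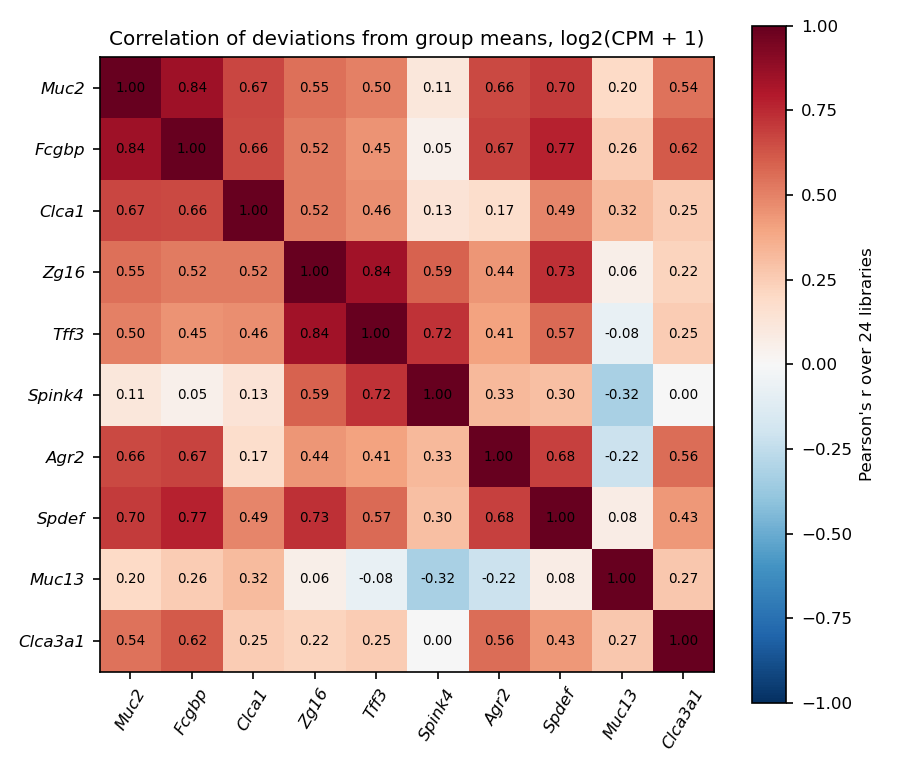
Pearson's r between 10 genes over 24 libraries, computed on deviations of log2(CPM + 1) from the mean of each segment and surgery group, with red for positive and blue for negative values and r printed in each cell. Muc2 and Fcgbp (0.84) and Tff3 and Zg16 (0.84) are the closest pairs, and Muc13 has values between -0.32 and 0.32 with the others.

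The promoters of Muc2 and Fcgbp are printed because these 2 members moved together most closely. RefSeq promoter sequences for GRCm38 were found for 6 of the 11 genes (Muc2, Fcgbp, Agr2, Spdef, Muc13 and Clca3a1), and the 250 bases before the start were searched on both strands. Capitals mark exact matches to TATAAA and CAGCTG, the latter an E-box of the kind bound by Atoh1. Near matches are left unmarked, such as tataag in Muc2 and tataac in Fcgbp, which both lie close to the start. The window of Muc2 is chr7:141690090-141690339 on the plus strand, with TATAAA at -174 and CAGCTG at -112, counted from the start. That of Fcgbp is chr7:28070986-28071235 on the plus strand, with CAGCTG at -208.
Muc2 promoter: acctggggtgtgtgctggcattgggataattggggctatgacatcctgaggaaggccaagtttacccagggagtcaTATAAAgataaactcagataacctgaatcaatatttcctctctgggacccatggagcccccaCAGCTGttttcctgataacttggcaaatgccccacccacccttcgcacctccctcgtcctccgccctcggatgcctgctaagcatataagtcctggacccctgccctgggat
Fcgbp promoter: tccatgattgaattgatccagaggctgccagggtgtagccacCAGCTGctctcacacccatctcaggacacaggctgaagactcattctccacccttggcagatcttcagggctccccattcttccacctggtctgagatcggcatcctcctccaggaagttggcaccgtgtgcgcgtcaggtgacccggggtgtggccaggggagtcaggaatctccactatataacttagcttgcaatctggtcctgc

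CAGCTG was in 13% of all 32851 promoter windows and TATAAA in 12.4%. CACCC, a core bound by Klf factors, was in 52.0% of all windows and in those of Muc2, Fcgbp, Agr2 and Clca3a1. TGTTTAC, bound by Foxa factors (3.17% of windows), the STAT6 motif with a 4-base gap (5.85%), and ATCCGG, a core of ETS factors such as Spdef (4.94%), were in none of the 6 genes' windows. These are matches of letters and do not show binding.

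The genes that act around the mucus were read by lists chosen by function. Over all genes, 0.00922% were called in the duodenum, 9.75% in the jejunum (4.62% as higher) and 6.05% in the ileum (1.64% as higher). Of the 10 transcription factors of the secretory lineage, 2 of 10 tested were called in the jejunum, both higher, Foxa1 (log2 fold change 1.59, limma, adjusted p = 0.0277) and Xbp1 (0.70, adjusted p = 0.0178). Xbp1 drives the secretory apparatus of the endoplasmic reticulum and stood between 248.9 and 296.9 CPM after RYGB and between 158.6 and 169.2 CPM after sham surgery. Atoh1, the factor that commits cells to the secretory lineage, had 0.02 and stood at 6.20 against 6.25 CPM on average. None of 10 was called in the duodenum and none of 9 in the ileum (limma, with 1 at an unadjusted p under 0.05 in each). Of 18 tested genes for goblet cell folding, granules and secretion, among them Ern2, Sytl2, Rab27a, Vamp8 and Nlrp6, 0 were called in each segment (limma). At an unadjusted p under 0.05, 9, 3 and 2 of the 18 passed in duodenum, jejunum and ileum, beside 18.8%, 24.6% and 26.5% of all genes. The median log2 fold changes were 0.57 in the duodenum, 0.27 in the jejunum and -0.07 in the ileum.

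Of 18 genes of mucin O-glycosylation tested in the jejunum, 5 were called, all higher, where 4.62% of all genes were called as higher. The median over the list was 0.29. Gcnt3, which makes the branched core structures of mucin sugars, stood between 238.5 and 373.4 CPM after RYGB and between 22.9 and 60.6 CPM after sham surgery (log2 fold change 3.17, standard error 0.31, limma, adjusted p = 0.000654). Galnt3, which starts the chains (1.70, adjusted p = 0.000939), Fut2, which adds fucose (1.45, adjusted p = 0.00738), and B3gnt7, which extends the chains (1.36, adjusted p = 0.0275), rose as well. None of 17 was called in the duodenum and none of 18 in the ileum (limma, 1 and 4 at an unadjusted p under 0.05), and in the ileum Gcnt3 had 1.13 (adjusted p = 0.0610) and Galnt3 had 0.85 (adjusted p = 0.0712).

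Of the other mucins and trefoil peptides, 3 of 11 were listed. Muc4, a membrane mucin, rose in the jejunum from 56.2 to 422 CPM on average (log2 fold change 2.92, limma, adjusted p = 0.00104), and the membrane mucin Muc3 fell by 0.99 on the log2 scale (adjusted p = 0.0084). Neither was called in the ileum or the duodenum, where adjusted p lay between 0.295 and 0.685 (limma). Of the interleukin 4 and 13 axis, 4 of 12 genes were tested, and Il33, an alarmin upstream of these interleukins, and their receptor chain Il4ra were higher in the jejunum (2.48, adjusted p = 0.00821, and 1.27, adjusted p = 0.00906). Il33 lay between 143.6 and 633.0 CPM after RYGB and between 34.9 and 55.0 CPM after sham surgery. Of the Notch pathway, 0 of 9 genes were called in the jejunum and in the duodenum (limma, 0 and 4 at an unadjusted p under 0.05), and 1 of 10 in the ileum, the receptor Notch1 (-1.05, adjusted p = 0.0157).

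Markers of other epithelial cells were called in the jejunum too, where 9.75% of all genes were called, 4.62% as higher. Of 9 Paneth cell markers tested 4 were called, all higher, Mmp7 (2.41), Lyz1 (2.05), Defa30 (2.03) and Defa24 (1.96; limma, adjusted p from 0.00555 to 0.0122), and their list sum lay between 171.2 and 278.9 CPM after RYGB and between 93.8 and 158.4 CPM after sham surgery. Of 8 tuft cell markers, Trpm5 rose (2.60, adjusted p = 0.00243) and Ltc4s fell by 1.70 on the log2 scale (adjusted p = 0.0242). Of 12 enterocyte markers, Lct (-1.45, adjusted p = 0.00525) and Apoa4 (-1.47, adjusted p = 0.0337) were lower, and the list sum ran from 63017 to 93918 CPM after RYGB against 103483 to 128515 CPM after sham surgery. Of 5 crypt and cycling markers, 0 were called in a segment (limma), with 4, 1 and 0 at an unadjusted p under 0.05 in duodenum, jejunum and ileum. The part of these cell types in the rise of Spink4 and Clca1 in the jejunum was not tested. In the ileum, where Clca1 and Spink4 rose too, 0 of 10 Paneth and 0 of 8 tuft cell markers were called (limma, 4 and 1 at an unadjusted p under 0.05). Their median log2 fold changes were 0.61 for the Paneth and -0.14 for the tuft cell markers, beside -0.09 over all genes. Of 12 enterocyte markers 2 were called, Fabp1 as higher (1.25, limma, adjusted p = 0.0391) and Lct as lower, and the enterocyte sums overlapped between the groups. The part of these cell types in the ileal rise was not tested either.

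**Figure D5:**
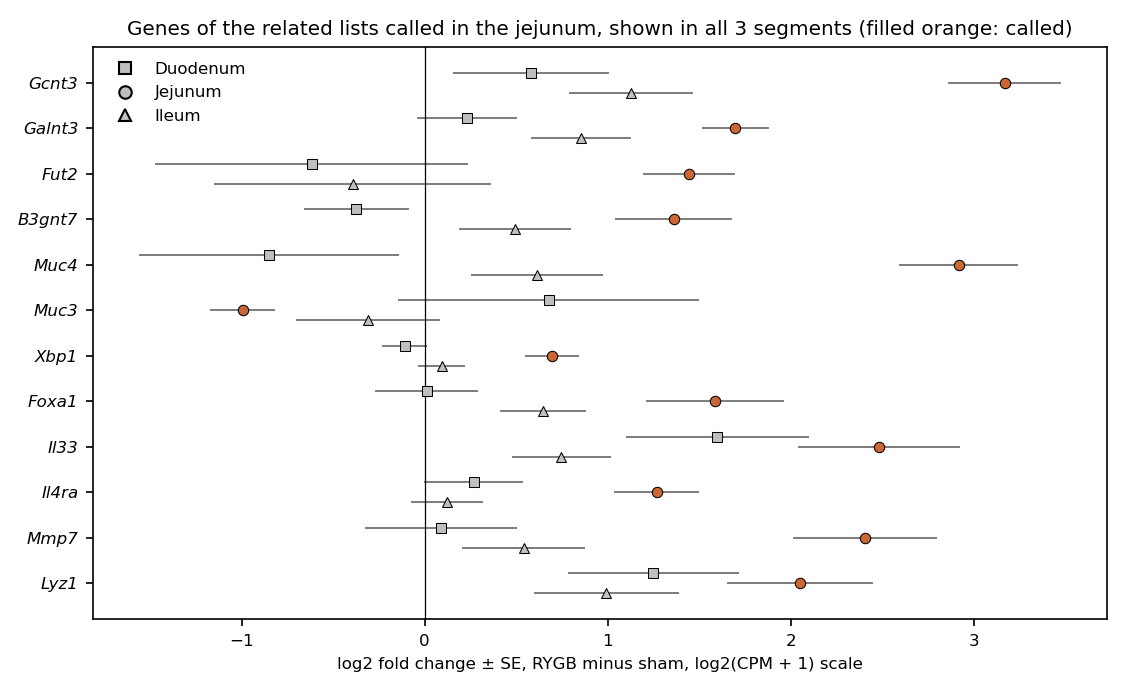
Log2 fold change ± SE of RYGB against sham on the log2(CPM + 1) scale for 12 genes of the related lists that were called in the jejunum, with squares for the duodenum, circles for the jejunum and triangles for the ileum, and orange for calls. Among these 12, Gcnt3 (3.17) and Muc4 (2.92) lie farthest to the right in the jejunum, Muc3 is the only circle left of 0, and no square or triangle is filled. Not all called list genes are drawn. Those left out include Lct, Apoa4, Ltc4s and Cd3e, lower in the jejunum, and Trpm5, Defa30 and Defa24, higher there. Lct and Cd3e were also called as lower in the ileum.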

How the data were processed

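Villus mRNA of the duodenum, jejunum and ileum was analysed in 24 of the 48 libraries of the series. The kit kept the strand of the mRNA. The values are CPM, which the authors deposited rounded to 0.1, with 1 table for each tissue, and the submitters' processing notes name HTSeq and the GRCm38 genome. The aligner is not given in the sources used here. Lines repeating an Ensembl identifier held equal values and were counted once. The tables hold genes at 1 CPM or more in no fewer libraries than the smaller group has (3, 3 and 5). Total counts were not used here, so the depth is unknown, no counting interval was computed, and the rounding limits genes near 1 CPM.

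Groups were read from the sample titles. RYGB was compared with sham in each segment by limma 3.58.1 (R 4.3.3, empirical Bayes with trend) on log2(CPM + 1), over genes whose mean reached 1 CPM, a scale that understates changes of low genes. P values were adjusted by Benjamini-Hochberg over all genes tested, and a call needed an adjusted p under 0.05 and a fold change of at least 1.5. One fit of 6 groups gave the contrasts between segments. The comparison of ileum with duodenum was added to the 2 neighbouring ones. The method was tested on simulated data.

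The members and lists were chosen with earlier results of these data known. Named were all members, from each list at most the 4 called genes with the largest change in a segment plus defining markers where needed, and the 5 genes most like Muc2 with a mean of at least 5 CPM. The list genes Atoh1, Ern2, Sytl2, Rab27a, Vamp8 and Nlrp6, and Gcnt3 and Galnt3 in the ileum, were named after their values were seen. Alternatives were another pseudocount (0.1), no filter or a mean of at least 10 CPM, median-ratio scaling, a replicate block, lane, and each library left out. Levels relative to Muc2 and fits without the libraries in doubt were added after seeing the data. Loci and coding sequences came from GENCODE M21 (Biopython 1.88 for the alignment) and promoters from RefSeq, both on GRCm38. Python 3.11.15, pandas 2.3.3 and matplotlib 3.10.9 were used.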

Additional observations from a re-analysis of the deposited data

Results flagged for a closer look

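Of 48 groups of 4 or 5 libraries, 1 held a member's value far from the rest on the log2(CPM + 1) scale, where chance flags about 1 in 20 groups, or 2.4 here. Zg16 in the sham duodenum was lowest in replicate 3, with 1065.3 CPM, and the next library held 2531.2 CPM. On the log2 scale this gap made up 0.936 of the whole range. Sham replicate 3 also had the lowest Muc2, Fcgbp, Clca1, Tff3, Spink4 and Spdef of the sham duodenum, and the highest leukocyte marker sum of the duodenal libraries (848.3 CPM). Its part in the low values was not tested.

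The RYGB effect on Clca3a1 differed between ileum and duodenum by a test of the difference itself, at -2.84 on the log2 scale (limma, adjusted p = 0.0394). The effect was 1.30 in the duodenum and -1.53 in the ileum, and neither was called in its own segment. The adjusted p ranged over the alternatives that lost the call from 0.0523 to 0.101.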

How the results depend on the processing

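Clca1 in the ileum kept its call under each pseudocount, filter, scaling, block and single-library alternative, and lost it only relative to Muc2 and without the 3 libraries of highest leukocyte sum, where fewer samples were fitted. Of 3463 single-gene values recomputed, 3408 kept their direction and their side of the threshold or had neither value past it, 37 lost a call, 18 gained one and 0 changed sign with a call. The sign changed without a call in 138. The number of the 12 rows called, in which Muc2 has 3, changed as follows. It was 0 in the duodenum, where fits leaving out a single library gave 0 to 4 (4 without sham replicate 4). In the jejunum it was 2, 0 with the lane covariate, 1 relative to Muc2, and between 0 and 2 when single libraries were dropped (0 without RYGB replicate 2, 1 without RYGB replicate 3 or sham replicate 1, 2 or 4). In the ileum it was 2, 0 without the 3 libraries of highest leukocyte sum, 1 relative to Muc2, and between 1 and 2 when single libraries were dropped. Between sham segments it was 0 for jejunum against duodenum (0 to 1 in such fits), 1 for ileum against jejunum (0 to 2; 0 without sham replicate 2 of the jejunum) and 4 for ileum against duodenum (4 to 6), with the highest counts without sham replicate 4 of the duodenum, where Muc2 in the neighbouring steps and Fcgbp and Tff3 from duodenum to ileum were called in addition (27.4% of all genes were called from duodenum to ileum in that fit). Between RYGB segments it was 0, but 1 for jejunum against duodenum after scaling and 0 to 1 in such fits (1 without RYGB replicate 1 or 2 of the duodenum). For the difference of effects between ileum and duodenum it was 1, 0 after scaling, 0 when genes needed a mean of 10 CPM, and 0 to 3 in such fits (3 without sham replicate 4 of the duodenum, for Clca3a1, Muc2 and Fcgbp, with 16.9% of all genes called), and for jejunum against duodenum 0 to 1. Among the alternatives, the share of all genes called was computed only for the fits without sham replicate 4 of the duodenum. The counts from the other alternatives have no such share beside them and cannot be read as results about these rows. Some of these fits hold fewer genes or libraries, and otherwise the cause was not tested.

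Replicate numbers were tried as a block, although the labels do not say that they mark shared mice. Deviations from the group means correlated between RYGB and sham libraries of the same number with Pearson's r from -0.29 to 0.30. Libraries of unequal number were not compared, so these values do not decide whether equally numbered libraries were matched. The block gave 0 calls in the duodenum, 1 in the jejunum, where Clca1 had 0.72 (limma, adjusted p = 0.0942), and 1 in the ileum, where Spink4 had 0.75 (adjusted p = 0.0632). The share of all genes called with the block was not computed. In the duodenum and jejunum the block gives sham replicate 4 no partner, so that its estimates equal those without that library.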
